A study of Mus musculus with 8 samples.

Results

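The genes described here encode the 5 tyrosine kinases that carry the signal of the pre-B-cell receptor: Syk, Btk, Lyn, Blk and Fyn. Peaks of Brg1 and of EBF1 were collected from 4 peak lists when the summit lay in the body of one of these genes, or lay outside protein-coding genes with one of them as the nearest bound within 100 kb. By this rule the kinase genes held 14 peaks, of which 0 were among the 312 EBF1 peaks of the DMSO control, 0 among the 5 EBF1 peaks after dTAG-13, 5 among the 234 Brg1 peaks in DMSO and 9 among the 5206 Brg1 peaks after dTAG-13. ChIP-seq recovers DNA fragments bound by a protein, and a peak is an interval where they pile up over background. The EBF1 libraries came from the line EBF1-dTAG_C (antibody 1C, 4 µg) and the Brg1 libraries from EBF1-dTAG_N (antibody ab110641, 0.5 µg). Cells were fixed with 1% formaldehyde, for 10 min in the EBF1 libraries and 15 min in the Brg1 libraries. Both lines are pro-B cells of mouse transformed with A-MuLV, a retrovirus carrying the v-Abl tyrosine kinase, and in both an exogenous modified EBF1 gene stands in for the endogenous one. The dTAG is a degron that the small molecule dTAG-13 (0.5 µM, 6 h) targets for degradation. The controls are labelled as 6 h of DMSO in one field and as 0 h in the titles. Each antibody and treatment is 1 library with peaks called on its own, so differences between conditions lack replicates and none was tested. No source used here says whether each line is 1 clone. EBF1 was not mapped in the line used for Brg1, so its loss there was not measured.

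These kinases form the first steps downstream of the pre-B-cell receptor, which pro-B cells assemble once a heavy chain has been made. Lyn, Blk and Fyn, of the Src family, phosphorylate the tail motifs of CD79a and CD79b. Syk binds those phosphorylated tails and phosphorylates the adaptor BLNK, on which Btk, of the Tec family, activates phospholipase C-gamma-2. Brg1 is the ATPase of the BAF complex, which moves nucleosomes at promoters and enhancers. EBF1, without which B cells do not form, binds a palindromic DNA sequence.

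The promoters closest to the peaks of Syk, and for contrast those of Btk and Fyn, whose nearest Brg1 summits were over 16 kb away, are shown as RefSeq gives them for GRCm38.p6, the build of the peak lists. Each runs 5′ to 3′ on the strand of its gene, from 250 bases before the start to 50 after, and 3 of the 5 kinases were found in that table. Capitals mark matches, on either strand, to 9 short motifs: CCCNNGGG and its extension CCCNNGGGA for EBF1, with GGAAGT for ETS factors, TGTGGT for Runx, CAGCTG or CAGGTG for E proteins, TGGGAA for Ikaros, GAAANNGAA for IRF and TGANTCA for AP-1. CCCNNGGGA lies within CCCNNGGG, so both count the same place. The Gm2848 window is chr13:52573176-52573475, minus strand. The Syk windows are chr13:52583187-52583486 and chr13:52596632-52596931, plus strand. The Btk window is chrX:134583091-134583390, minus strand, and the Fyn window chr10:39369549-39369848, plus strand.
Gm2848: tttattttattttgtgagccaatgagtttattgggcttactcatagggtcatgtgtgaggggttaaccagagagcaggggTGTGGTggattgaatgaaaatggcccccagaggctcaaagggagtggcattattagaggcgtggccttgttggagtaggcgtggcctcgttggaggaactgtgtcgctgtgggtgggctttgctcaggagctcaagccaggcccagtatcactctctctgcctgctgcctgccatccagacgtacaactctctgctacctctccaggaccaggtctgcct
Syk, first start: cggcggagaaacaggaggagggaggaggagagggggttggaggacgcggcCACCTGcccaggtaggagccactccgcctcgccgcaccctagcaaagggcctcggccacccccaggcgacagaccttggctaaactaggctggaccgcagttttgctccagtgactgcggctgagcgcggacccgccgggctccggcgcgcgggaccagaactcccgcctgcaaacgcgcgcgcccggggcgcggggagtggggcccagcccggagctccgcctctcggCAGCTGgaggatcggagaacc
Syk, second start: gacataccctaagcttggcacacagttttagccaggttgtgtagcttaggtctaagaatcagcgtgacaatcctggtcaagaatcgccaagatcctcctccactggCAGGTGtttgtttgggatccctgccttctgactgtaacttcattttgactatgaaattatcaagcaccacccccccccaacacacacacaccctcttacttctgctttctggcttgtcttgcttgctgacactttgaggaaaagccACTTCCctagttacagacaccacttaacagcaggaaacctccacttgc
Btk: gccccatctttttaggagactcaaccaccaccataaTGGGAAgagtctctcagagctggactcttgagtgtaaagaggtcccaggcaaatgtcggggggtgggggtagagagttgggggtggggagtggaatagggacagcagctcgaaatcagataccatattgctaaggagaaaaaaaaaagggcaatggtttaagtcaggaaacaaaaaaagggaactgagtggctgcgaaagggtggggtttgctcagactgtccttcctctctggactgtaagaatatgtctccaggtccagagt
Fyn: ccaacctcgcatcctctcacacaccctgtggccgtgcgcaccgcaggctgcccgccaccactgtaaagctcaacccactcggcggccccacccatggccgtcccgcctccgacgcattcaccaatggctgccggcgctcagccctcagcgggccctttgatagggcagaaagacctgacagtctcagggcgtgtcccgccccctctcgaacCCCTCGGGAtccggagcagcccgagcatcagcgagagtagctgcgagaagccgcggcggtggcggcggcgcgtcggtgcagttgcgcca

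Matches were few. The EBF1 letters occurred in the Fyn window alone of these 5, as CCCTCGGGA, and Fyn had no EBF1 peak. Positions of matches are those of their first base from the start, negative before it, and this one was at -39. CCCNNGGG stands in 13.7% of all 32851 promoter windows and CCCNNGGGA in 6.56%. The first Syk window held E-protein letters at 29 (CAGCTG, in 16.3% of windows) and, on the opposite strand, at -200 (CAGGTG, in 20.2%). The second held CAGGTG at -144 and, on the opposite strand, an ETS match at 2 (GGAAGT, in 23.8%). Btk had an Ikaros match at -214 (TGGGAA, in 25.6%), and Gm2848 a Runx match at -170 (TGTGGT, in 16.8%). GAAANNGAA (8.56%) and TGANTCA (7.81%) were in none of the 5. No peak of the 4 lists assigned to a kinase overlapped any of these windows, so the matches describe the windows only.

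Brg1 was placed at 2 of the 5 kinase genes in DMSO, Syk and Lyn, and at 4 of 5 after dTAG-13, Syk, Lyn, Btk and Fyn. Blk had no peak in any list. Over 21900 protein-coding genes, 0.817% had an assigned Brg1 peak in DMSO and 12.2% after dTAG-13, and among the 5840 genes at least as long as Btk, the shortest of the kinases at 41295 bp, the shares were 1.75% and 20.6%. For EBF1 the kinases had 0 of 5 in both lists, where 1.28% of all protein-coding genes had an assigned peak in DMSO and 0.0228% after dTAG-13. In DMSO 4 of the 5 Brg1 summits lay outside the genes and 1 inside, and after dTAG-13 it was 3 outside and 6 inside. Exons and introns were not told apart, since the gene table used gives bounds only.

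**Figure D1:**
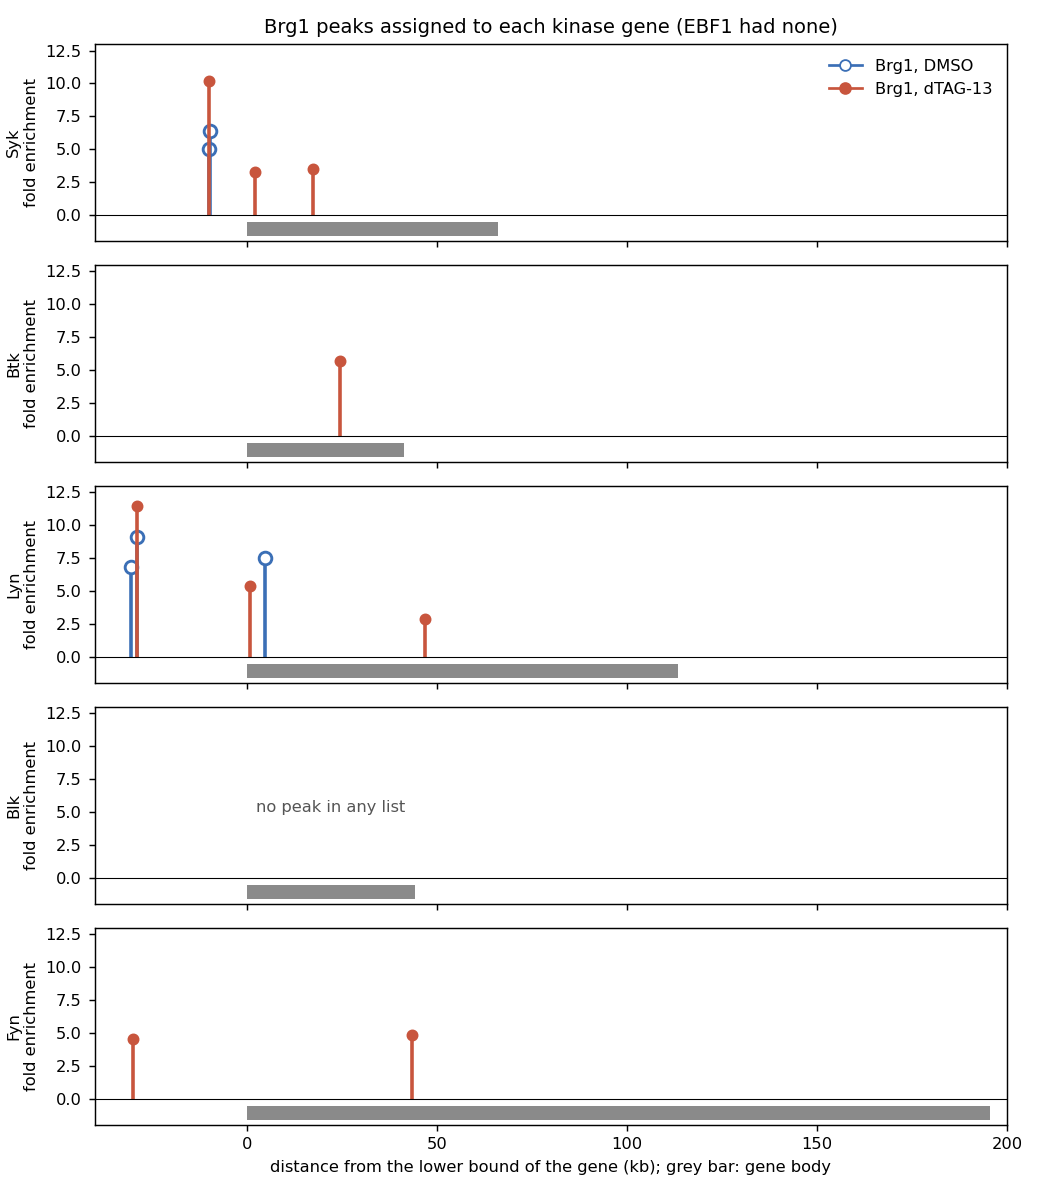
Fold enrichment over local background, as deposited for each Brg1 peak (y axis), against the distance of its summit from the lower bound of the gene in kb (x axis), with open blue circles for DMSO, filled red circles for dTAG-13 and a grey bar for the gene body. Lyn and Syk carry their highest peaks outside the body, at 11.5 and 10.2 after dTAG-13, and Blk is empty. Heights are comparable within a condition only.

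Lyn (gene ID 17096, chromosome 4, 3678068 to 3791612) carried the highest Brg1 peaks of the 5. In DMSO the leading one spanned 3649028 to 3649335, 28907 bp outside the lower bound, with 20 fragments at its summit and a fold enrichment of 9.08, the 15th highest fold of 234. A second spanned 3647545 to 3647733 (12 fragments, fold 6.82), and the summits were 1556 bp apart. After dTAG-13 a single peak from 3647158 to 3649934 covered both. It had 42 fragments and a fold of 11.5, stood 13th of 5206 by −log10 q and, at 2777 bp, was the widest peak of the whole list. Peaks of that list were wider in general, with a median of 323 bp against 224.5 bp in DMSO. Fold enrichment, here and below, is the authors' linear ratio at the summit over the local background of that library, and is not compared in size between libraries.

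The interval outside Lyn lies in a gap between genes, and its assignment is close. The dTAG-13 summit was 28821 bp from Lyn and 32623 bp from Tgs1 on the other side, and the smaller DMSO peak 30463 bp from Lyn and 30981 bp from Tgs1. The nearest non-coding gene was the lncRNA 2210414B05Rik, at 7259 bp from the dTAG-13 summit. With non-coding genes included among the candidates, this interval is no longer assigned to Lyn.

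Inside Lyn the conditions gave different peaks. DMSO had 1, at 3682899 to 3683084, with 12 fragments and a fold of 7.49. After dTAG-13 there were 2, at 3678716 to 3679259 (19 fragments, fold 5.36) and at 3724830 to 3725160 (21 fragments, fold 2.86). The first of these had its summit 994 bp inside the lower bound and the second 46900 bp. Neither overlapped the DMSO peak, whose summit was 3959 bp from the nearest dTAG-13 summit. The second stood low in its list, at 4766 of 5206, over a local background of 6.70 fragments per base, 3.12 times the lowest of that library and the highest such ratio among the kinase peaks.

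Syk (gene ID 20963, chromosome 13, 52582610 to 52648792) had a similar arrangement at lower height in DMSO. Its 2 DMSO peaks, at 52572592 to 52572807 and at 52572930 to 52573154, had 9 and 10 summit fragments and folds of 5.04 and 6.38. They ranked 226 and 173 of 234 by −log10 q, with 3.42% and 26.1% of the list below them. After dTAG-13 both lay within a single peak at 52571973 to 52573167, 1195 bp wide, with 39 fragments, a fold of 10.2 and rank 19 of 5206. The DMSO summits correspond to 31.8 (14.6 to 60.4) and 35.4 (17.0 to 65.0) fragments at the depth of the dTAG-13 library, given further on, beside the 39 found there. Ranks in lists of such unequal length show no change.

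The interval outside Syk lies inside a non-coding gene. All 3 summits were in the lncRNA Gm2848 (52569880 to 52573225, minus strand), whose start is 10212 bp from the first Syk start, the genes being transcribed away from each other. The dTAG-13 peak ended 58 bp downstream of the Gm2848 start, 9 bp short of the Gm2848 window printed above, with its summit 536 bp into the gene. The DMSO summits were 587 and 218 bp into it. Assigned by the nearest gene of any kind, these peaks belong to Gm2848 and Syk has none in DMSO. The next protein-coding gene, Diras2, was 41335 bp from the dTAG-13 summit.

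Syk also had 2 small dTAG-13 peaks inside its body, each downstream of one of the starts whose windows are printed above. They were at 52584599 to 52584808, with the summit 1270 bp after the first start, and at 52599811 to 52600070, 3087 bp after the second. They had 13 and 14 fragments and folds of 3.22 and 3.45, and ranked 5062 and 4835 of 5206. Neither was in the DMSO list.

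**Figure D2:**
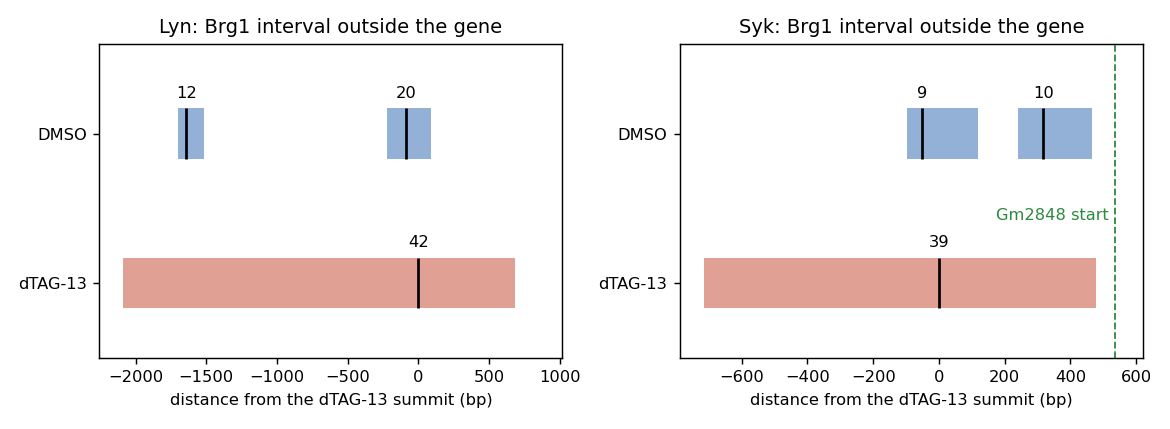
The Brg1 intervals outside Lyn (left) and Syk (right), drawn to scale in bp from the dTAG-13 summit, with DMSO peaks in blue, dTAG-13 peaks in red, summits as black lines and the number of summit fragments above each. At both genes a single dTAG-13 peak (42 and 39 fragments) spans 2 DMSO peaks (12 and 20, 9 and 10), and at Syk it ends 58 bp from the Gm2848 start (dashed line).

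Such joined peaks were rare in the lists. Of the 126 dTAG-13 peaks that overlapped a DMSO peak, 3 overlapped 2 or more, and 2 of these were the ones at Lyn and Syk. The third was assigned to Kctd12, at 68952 bp. In the other direction, of the 127 DMSO peaks that overlapped a dTAG-13 peak, 2 overlapped 2 or more, 0 of them at the kinases. The dTAG-13 library is the deeper one, with 3.54 times the background, and its peaks are wider in general. Joined peaks are therefore not read as broader Brg1 binding, which was not tested. Lyn was also 1 of 2 protein-coding genes with 3 Brg1 peaks in DMSO, the other being Msi2, and 10 had 2 or more. Kctd12 and Msi2 are named because these counts are small, after their values were seen. Of the 3 DMSO peaks at Lyn only 1 was inside the gene. The count of 3 rests on a close assignment, since the smaller outside peak was 30463 bp from Lyn and 30981 bp from Tgs1.

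Btk (gene ID 12229, chromosome X, 134542334 to 134583628) had 1 Brg1 peak, after dTAG-13 only. It spanned 134566629 to 134566966, within the gene and 16351 bp downstream of the start, with 17 fragments and a fold of 5.72, at rank 1247 of 5206. Its local background, 2.15 fragments per base, was the lowest of that library. The next Brg1 summit of that list was 11527434 bp from the gene, and the nearest in DMSO 8899437 bp.

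Fyn (gene ID 14360, chromosome 10, 39369743 to 39565381), the longest of the 5 at 195639 bp, had 2 Brg1 peaks after dTAG-13 and 0 in DMSO. One was 29866 bp outside the lower bound, at 39339387 to 39340026, with a fold of 4.56 and rank 1828. The other was inside the gene, at 39413128 to 39413413, 43466 bp downstream of the start, with a fold of 4.83 and rank 1489. Both had 20 fragments. The Fyn start is 187 bp from that of the lncRNA Gm31616, and the nearest Brg1 summit was 29735 bp from the latter. With non-coding genes among the candidates, the outside peak goes to Gm31616.

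Blk (gene ID 12143, chromosome 14, 63372837 to 63417187) was the exception, with no peak of either protein. The nearest Brg1 summit after dTAG-13 was 240865 bp from its body, inside Ctsb. The nearest in DMSO was 16137893 bp away, and the nearest EBF1 summit in DMSO 1926583 bp. A peak list shows where signal passed the caller's threshold, so it does not give the level at Blk.

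The 100 kb limit did not decide any of these counts at its edge. The most distant assigned summit was 30463 bp from its gene (Lyn, DMSO). The nearest Brg1 summits left out, all after dTAG-13, were at 33467 bp from Lyn and 48150 bp from Fyn, which went to Rps20 and Traf3ip2, and at 145020 bp from Syk.

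No kinase peak of Brg1 overlapped an EBF1 peak. The nearest EBF1 summit in DMSO was 1673768 bp from the body of Syk, 4180800 bp from Fyn and 11461064 bp from Lyn, and chromosome X held none. After dTAG-13 the only EBF1 peak on a chromosome of these genes was 6704677 bp from Blk. Among all protein-coding genes with a Brg1 peak in DMSO, 48 of 179 (26.8%) also had an EBF1 peak, against 0 of 2 kinases. Of the protein-coding genes with a Brg1 peak after dTAG-13, 157 of 2671 (5.88%) had an EBF1 peak in the DMSO control, against 0 of 4 kinases. The 0 of 2 and 0 of 4 follow from the kinases having 0 EBF1 peaks and add no further result. These shares count genes with both proteins, not overlapping peaks, and were not tested against each other. The share of all Brg1 peaks that overlap an EBF1 peak is not given here.

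**Figure D3:**
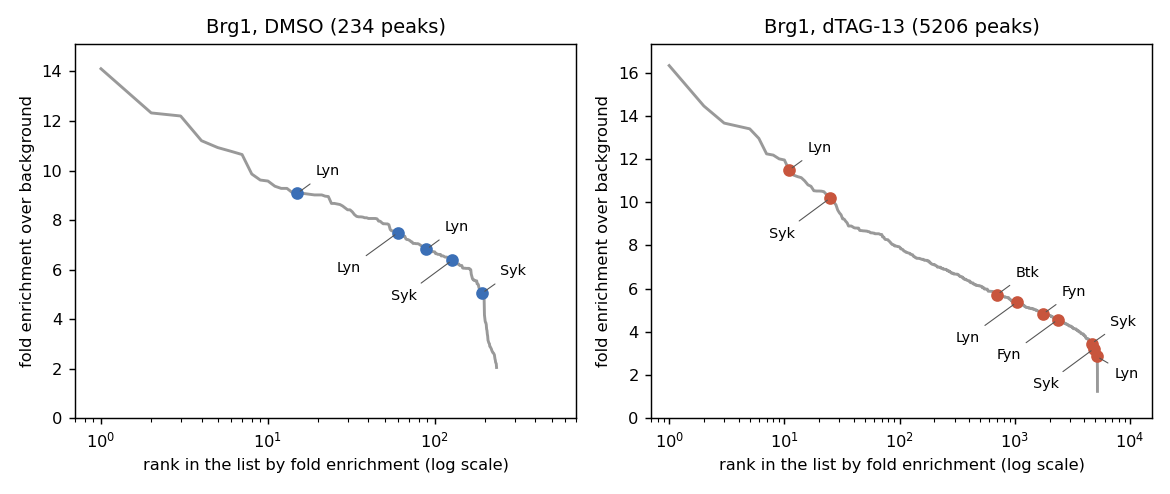
All Brg1 peaks of each list in order of fold enrichment (grey line; x axis, rank on a log scale; y axis, fold enrichment as deposited), with the peaks of the kinase genes marked, DMSO on the left and dTAG-13 on the right. After dTAG-13 the outside peaks of Lyn and Syk stand at fold ranks 11 and 25, and the others lie between 701 and 5119.

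Of the 5 DMSO peaks at the kinases, 4 were found again after dTAG-13 by an overlap of at least 1 bp, beside 127 of 234 (54.3%) in the whole DMSO list. The 4 fall in 2 dTAG-13 peaks, so they are not separate sites, and no interval is given. Each of the 4 lay wholly within its dTAG-13 peak, of which it filled 6.81 to 18.8%, so none met a reciprocal overlap of 50%. The summits of 2 of the 4 were within 250 bp of the dTAG-13 summit, at 86 bp for Lyn and 51 bp for Syk. In the other direction 2 of the 9 dTAG-13 peaks were in the DMSO list, beside 126 of 5206 (2.42%) in the whole list.

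Depth differed between these libraries. The lowest local background, recovered from fold and p, was 0.607 fragments per base in the DMSO library and 2.15 in the dTAG-13 library, which is 3.54 times as much. Divided by this factor, the 7 kinase peaks seen only after dTAG-13 came to 3.68 to 5.94 fragments, all under the 8 of the weakest DMSO peak, as did 95.6% of the 5080 such peaks in the whole list. The peaks outside Lyn and Syk came to 11.9 (8.56 to 16.1) and 11.0 (7.84 to 15.1). The DMSO library had 20 (12.2 to 30.9) at the higher Lyn summit, 86 bp from the dTAG-13 summit. At Syk it had 10 (4.80 to 18.4) at the higher summit, 318 bp from the dTAG-13 summit, and 9 (4.12 to 17.1) at the other, 51 bp from it. The ranges are 95% Poisson intervals for counting error only, on summits picked for their height. At these sites the intervals of the conditions overlapped, which does not show that the levels are alike. Scaled the other way, the higher Lyn summit in DMSO comes to 70.7 (43.2 to 109), beside 42 (30.3 to 56.8) found after dTAG-13. Scaled counts under 8 do not separate the lists, since 77 of the 126 dTAG-13 peaks that were in the DMSO list also fell under it. More Brg1 at Btk, at Fyn, in the body of Syk and at the 2 dTAG-13 peaks inside Lyn therefore cannot be told apart from depth.

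The peak inside Lyn in DMSO had no overlapping dTAG-13 peak. Its 12 fragments correspond to 42.4 (21.9 to 74.1) at the depth of the dTAG-13 library, where the weakest listed peak had 10. Every DMSO peak had at least 8 fragments and passes 10 when multiplied by 3.54, so this comparison shows nothing particular to Lyn. In the whole DMSO list 107 of 234 peaks were likewise not overlapped. A loss of Brg1 at this site was not tested.

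**Figure D4:**
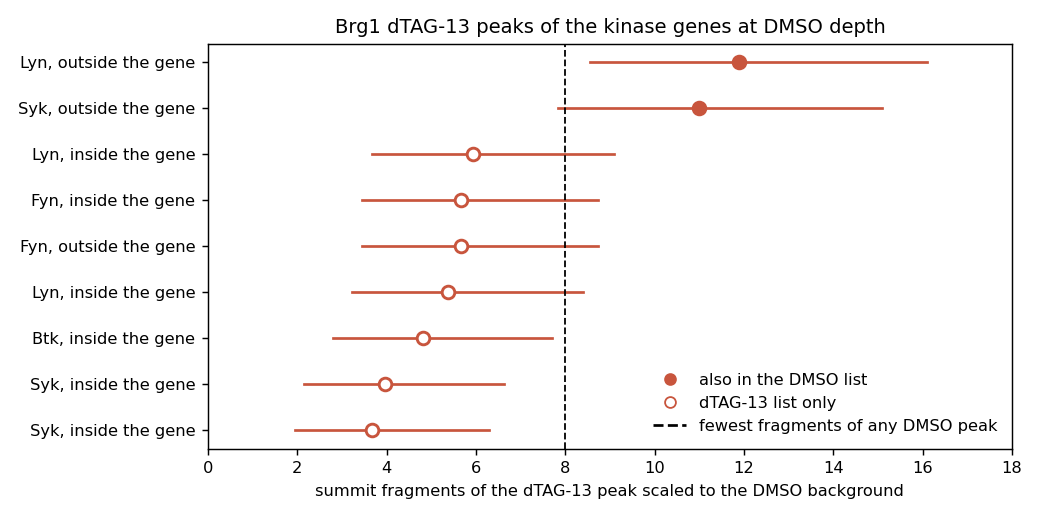
Summit fragments of the 9 dTAG-13 peaks at the kinase genes, divided by the background factor of 3.54 (x axis), with 95% Poisson intervals, filled where the peak was also in the DMSO list. The dashed line marks the 8 fragments of the weakest DMSO peak. The outside peaks of Lyn (11.9) and Syk (11.0) lie right of it and the 7 others left. The intervals of 4 of those 7, and that of Syk, cross the line.

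Other kinases of the same families had Brg1 peaks after dTAG-13 only, and EBF1 peaks in neither list. Of 5 Src-family relatives 1 had them, Lck (2 peaks, highest fold 4.77), which starts the same cascade in T cells. Of 5 relatives of Btk and Syk there were 3, with 10 peaks at Tec (highest fold 6.59), more than at any of the 5 pre-B kinases, and 1 at Zap70 (6.55). Over all protein-coding genes the share after dTAG-13 was 12.2%, and 20.6% for those at least as long as Btk. The 1 of 5 is near these shares, and neither count was tested. Lck, Tec and Zap70 are named after their values were seen. Src, Yes1, Fgr, Bmx and Txk had none in any list.

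The receptor chains, which the kinases act on, had Brg1 in DMSO at 3 of 5 (Cd79a, Igll1 and Vpreb2), the substrates and adaptors at 5 of 10 (among them Blnk, Plcg2, Bank1 and Pik3ap1) and the negative regulators at 1 of 10 (Ptpn6, the phosphatase SHP-1). Ptprc, which encodes CD45, the phosphatase that activates Src kinases, had none in DMSO and 3 peaks after dTAG-13. The share over all protein-coding genes was 0.817% in DMSO and 12.2% after dTAG-13 (20.6% for those at least as long as Btk), and these lists were chosen with earlier results of these data known. After dTAG-13 the counts were 5 of 5, 10 of 10 and 9 of 10, and Pag1, the membrane adaptor that recruits Csk, was the one without a peak. EBF1 had a peak in DMSO at 3, 3 and 2 of these genes, beside 1.28% of all protein-coding genes. Igll1, Vpreb2, Plcg2, Bank1 and Pik3ap1 had both proteins in DMSO, which no kinase had. Over all 21900 protein-coding genes 48 had both. By fold within the DMSO list, the partners named with Brg1 ran from 6.04 (Plcg2) to 8.57 (Pik3ap1), so that Lyn at 9.08 stood above all of them and Syk at 6.38 among them. After dTAG-13 the highest partner was Bank1, an adaptor that binds Lyn, at 10.4, between Lyn at 11.5 and Syk at 10.2. In both conditions these Lyn and Syk values are from peaks outside the genes. Partner peaks were taken inside or outside alike. The DMSO peak inside Lyn had a fold of 7.49, under that of Pik3ap1, and Syk had 0 inside in DMSO.

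Likeness was measured as the summed difference in number of peaks over the 4 lists. Lyn (0 EBF1 peaks in either list, 3 of Brg1 in each) had no protein-coding gene with the same counts, and Syk and Opcml came next, each 1 peak away with 2 Brg1 peaks in DMSO and 3 after dTAG-13. Syk shared its counts with Opcml, and Tmem123 was 1 peak away. Btk shared its counts with 1575 genes, of which 14 also had its highest fold, Ap2b1 and Cenpf being the first by name. Fyn shared its counts with 441, of which 5 also had its highest fold, Bmp2k and Cab39 being the first. Blk shared its counts with 19088, so no gene is named for it.

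The labelled cell type was checked against marker genes by assigned peaks alone, since no RNA was measured. Brg1 had a peak at 6 of 14 pro-B markers in DMSO and 11 of 14 after dTAG-13, EBF1 at 6 of 14 in DMSO. T-cell markers had 0 of 7 for Brg1 in DMSO and 1 of 7 after dTAG-13 (Cd3d), and myeloid markers 0 of 6 in both. With 0.817% and 12.2% of all protein-coding genes having a peak in these lists, so few genes of other cell types would show about as many by the background alone, and their counts check nothing.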

How the data were processed

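Peak lists of 4 immunoprecipitations were used, 1 library per group, with groups taken from the labels; 4 inputs were not analysed here. The submitters' processing notes name MACS2 2.2.7.1, Bowtie2 2.3.5.1, deepTools 3.3.2 and SAMtools 1.10, and the builds GRCm38 and mm10. For settings, filters and controls the entry is: not given in the sources used here. The authors deposited each peak's fold enrichment (a linear ratio), its p-value and q-value as −log10, a score equal to 10 times the −log10 q cut to a whole number, and the summit offset, which is another kind of value.

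Peaks were ranked by −log10 q. Summits were placed on RefSeq gene bounds of GRCm38.p6 (Python 3.11.15). Overlap means at least 1 bp. Fragments and local background at Brg1 summits were solved from fold and p, taking fold as fragments plus 1 over background plus 1. This gave whole fragments for 100% of peaks, within 0.001 in −log10 p (scipy 1.17.1), checked on data with known answers. The median summit had 13.0 fragments in DMSO and 18.0 after dTAG-13, which limits precision. The total depth of each library is unknown, so the depth factor rests on the lowest local background and assumes equal fragment length. No test between conditions was possible with 1 library each.

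Peak sequences were not examined, as no genome was used. Genes named are the 5 kinases with all their peaks, pathway genes with a Brg1 peak in DMSO or with none in any list, and the 2 genes nearest each kinase in peak counts, ties going by highest fold after dTAG-13 and then by name. Some pathway genes that this rule names are not reported here by name, and the counts over lists include them. The kinases and the pathway lists were chosen with earlier results of these data known. Alternatives were the distance limit, the candidate genes, the peak threshold, the list length and the overlap rule.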

Additional observations from a re-analysis of the deposited data

How the results depend on the processing

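Of 79 recomputed values, 21 moved by over 1.5 times. Of the 58 others, 37 were counts of 0 that stayed at 0, among them all those of EBF1; most of these alternatives take part of a set already empty and could not have changed them, so they show nothing of stability. The Brg1 DMSO peaks of the kinases, 5 at 2 genes, became 3 within 20 kb, 3 at 1 gene with −log10 q of at least 5, and 1 at 1 gene with −log10 q of at least 10, with candidates of any gene type or when only intervals touching a body were taken. The Brg1 dTAG-13 peaks, 9 at 4 genes, became 2 at 2 genes with −log10 q of at least 10 or with the list shortened to 234 peaks, where the outside peaks of Lyn and Syk were left, and 4 with a fold of at least 5, at Lyn, Syk and Btk. DMSO peaks found after dTAG-13, 4 of 5, became 2 of 3 within 20 kb or with −log10 q of at least 5, 2 of 5 with summits within 250 bp and 0 of 5 under a reciprocal overlap of 50%, where the widths of the dTAG-13 peaks alone fix the result. The dTAG-13 peaks found in DMSO, 2 of 9, became 1 of 7 within 20 kb, 1 of 6 with −log10 q of at least 5 and 0 of 9 under a reciprocal overlap of 50%. The other causes were not tested. No paired analysis was possible because each group had 1 library. The weakest summit of the Brg1 DMSO list rests on 8 fragments.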
